A study of Mus musculus with 12 samples.

Results

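Beta-oxidation cuts fatty acids down by removing acetyl units from their acyl-CoA form, and in mice it runs in mitochondria and in peroxisomes. The genes described here are 31 members of that machinery, taken by symbol from a set list and found in both deposited count tables, among 26121 genes that stand in both. By their known location, 17 were counted as mitochondrial and 9 as peroxisomal. The remaining 5 (Acsl1, Eci2, Crat, Mlycd and Acad11) have products that act in or serve both compartments and were counted as shared.

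Duodenal RNA was sequenced from C57BL/6N mice in 4 groups with 3 libraries each, and all mice began their diet at 6 weeks of age and ate it for 18 weeks. The Chow group ate regular chow, and the HFD group ate a high-fat diet with no injection. The HFD Vehicle group ate the high-fat diet and then had intraperitoneal 30% DMSO in corn oil, once daily over 4 days. The HFD PCN group ate the high-fat diet and had intraperitoneal PCN at 50 mg/kg on the same schedule. PCN is pregnenolone carbonitrile, a synthetic steroid that activates the rodent pregnane X receptor, a nuclear receptor of xenobiotic metabolism. Every library of the vehicle and PCN groups thus comes from mice on the high-fat diet. No label says that the libraries are separate animals, so the p-values measure the spread between these samples, which may in part be technical.

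In the mitochondrial route, a long-chain fatty acid is activated to its CoA ester, carried across the inner membrane as a carnitine ester, and shortened in repeated turns of dehydrogenation, hydration, dehydrogenation and thiolysis. The electrons pass through the electron transfer flavoprotein to the respiratory chain. Peroxisomes import very long-chain and branched substrates through ABC transporters of the D family and hand shortened products on to mitochondria. Absorptive enterocytes of the duodenum take up dietary fat and package most of it into chylomicrons, and they also oxidise part of it. Several of the genes below are textbook targets of the nuclear receptor PPAR alpha in liver and gut.

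Total counts per library ran from 4676718 to 20684369, with a median of 15404357, and the members took from 0.162% (HFD Vehicle 23) to 0.419% (HFD PCN 5) of them. The labelled tissue was checked against markers, since the extraction protocol in the labels speaks of liver. The 12 enterocyte markers summed to 13937 to 42240 CPM (counts scaled to 1000000 per library, after TMM scaling over all 12 libraries). The 6 hepatocyte markers found in both tables summed to only 1.49 to 4.57 CPM. HFD Vehicle 23 stood apart from the rest. Mitochondrial ribosomal RNA took 33.6% of its counts, against 8.69% to 19.2% elsewhere, and its enterocyte markers were the lowest of all libraries. It was also the lowest library for 18 of the 31 members, namely 11 mitochondrial, 3 peroxisomal and 4 shared ones. HFD 4 was next in both respects, with enterocyte markers at 20978 CPM and the lowest level of 5 members. HFD PCN 5 was the highest library for 15 members and HFD 38 for 7. In such bulk samples, fewer cells of a type and less RNA per cell cannot be told apart.

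**Figure D1:**
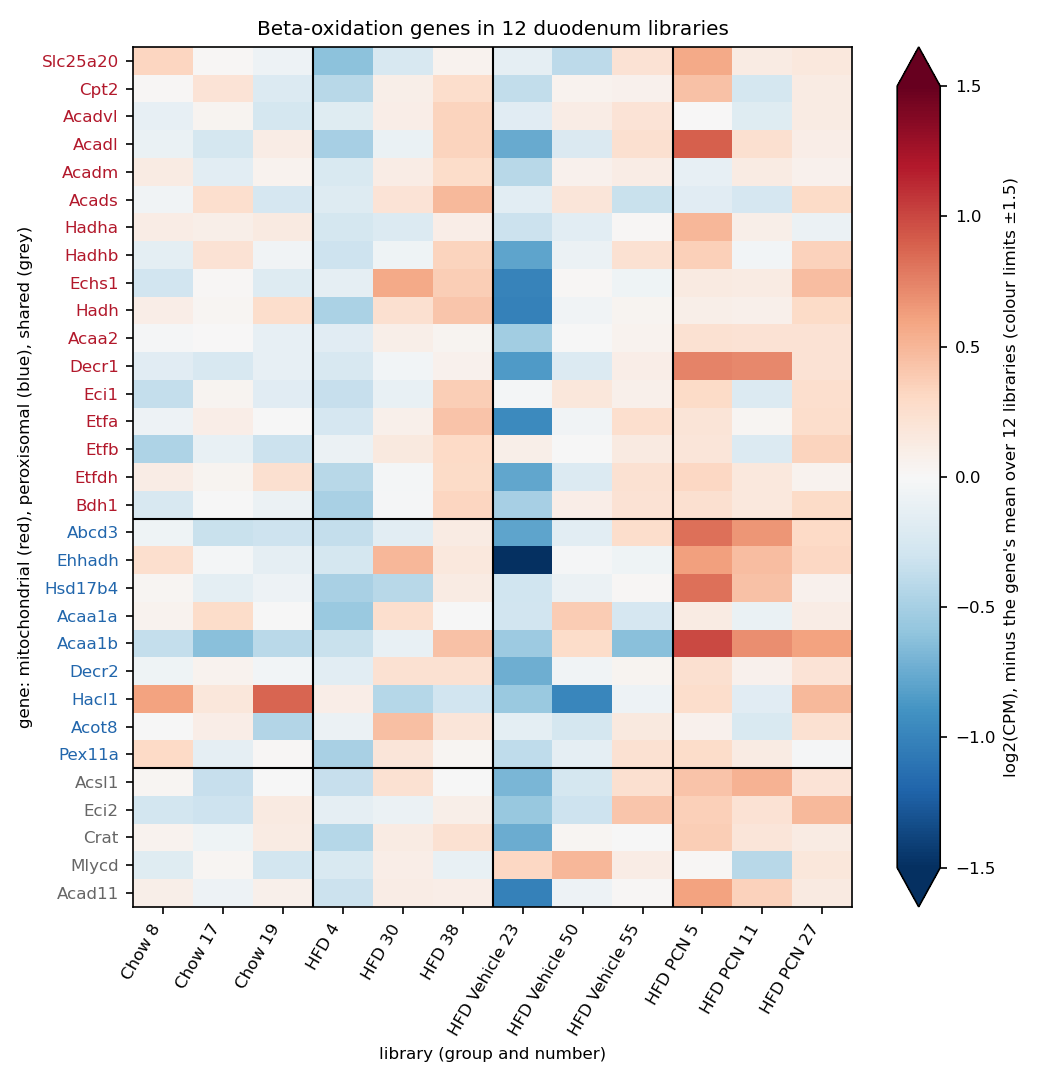
Colour shows log2 CPM of each of the 31 genes (rows, grouped by compartment) in each of the 12 libraries (columns, grouped by treatment), relative to the gene's own mean over the libraries. HFD Vehicle 23 is blue for most genes, and HFD PCN 5 is red for most of the peroxisomal and shared genes.

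Levels between genes were compared per length, as CPM divided by the length in kilobases of the gene's principal transcript, and are given as medians over the 12 libraries. Hadh, the dehydrogenase for medium- and short-chain hydroxyacyl-CoA, led the mitochondrial members at 229 CPM per kb. The mitochondrial thiolase Acaa2 followed at 157 CPM per kb. The highest peroxisomal members were the membrane transporter Abcd3 at 77.9 CPM per kb and the multifunctional enzyme Hsd17b4 at 71.7 CPM per kb. These levels stood beside that of Hadha, the alpha subunit of the mitochondrial trifunctional protein, at 70.8 CPM per kb, and the ranges of the 3 genes over the libraries overlapped widely. The peroxisomal thiolases were far apart, with Acaa1a at 55.4 CPM per kb and Acaa1b at 9.08 CPM per kb. Acad11, an acyl-CoA dehydrogenase of long-chain substrates, was the highest shared member at 49.2 CPM per kb, and the malonyl-CoA decarboxylase Mlycd was the lowest at 7.65 CPM per kb. Hacl1, a lyase of peroxisomal alpha-oxidation, was barely detected at 0.24 CPM per kb.

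Values of Etfb and Hacl1 are uncertain, because 69.1% and 58.2% of the bases of their principal transcripts also lie in another annotated gene on the same strand (Gm45233 and Gm49387). How reads shared by overlapping genes were counted is not given in the sources used here. On the opposite strand, Dvl2 covers 45% of Acadvl, Snx21 covers 21.1% of Acot8, Ackr4 covers 13.9% of Acad11 and Dlec1 covers 13.3% of Acaa1b. Whether the counting used strand is not given either, so reads of these partners may not be separated.

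On the high-fat diet, the beta-oxidation genes as a group stood near their chow level, and Echs1 and Acaa1b, both higher, had the smallest unadjusted p. None of the 30 members tested passed an adjusted p of 0.05 in HFD against Chow (edgeR's quasi-likelihood test with Benjamini-Hochberg adjustment over all genes), where 10 of 15278 genes, or 0.0655%, did. The median log2 fold change was 0.05 over the 17 mitochondrial members, 0.11 over the 8 peroxisomal members tested and 0.06 over the shared ones, beside 0.00 over all genes tested. Leaving out each library in turn gave mitochondrial medians of -0.07 (without HFD 38) to 0.15 (without HFD 4) and peroxisomal medians of 0.0082 (without HFD 30) to 0.18 (without HFD 4). Positive values were found for 19 of 30 members, against 50.5% of all genes. At an unadjusted p under 0.05 stood 2 members, both higher on the diet, beside 5.75% of all genes that were higher at that level. In the authors' deposited table of this comparison, 0 members were among the 106 genes with an adjusted p under 0.05. Hacl1 had too few counts to be tested here.

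Among the mitochondrial members, Echs1 and Etfb had the highest diet values and Slc25a20 the lowest. Echs1, the short-chain enoyl-CoA hydratase, stood at 47.1, 58.1 and 50.4 CPM in Chow and at 52.3, 85.3 and 74.2 CPM in HFD. The lowest HFD library lay within the Chow range and the other 2 above it. The log2 fold change was 0.44 ± 0.18 (SE, n = 3 per group; adjusted p = 0.450, edgeR). Slc25a20, the carnitine-acylcarnitine carrier of the inner membrane, stood at 54.2, 44.1 and 41.3 CPM in Chow and at 28.3, 37.0 and 45.1 CPM in HFD. These groups overlapped, with a log2 fold change of -0.34 ± 0.18 (SE, n = 3 per group; adjusted p = 0.533, edgeR).

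Hadha was the other mitochondrial member with a lower mean on the diet, among those named by the smallest p. It stood at 296, 290 and 302 CPM in Chow and at 228, 237 and 294 CPM in HFD, where HFD 38 reached the Chow range. Its log2 fold change was -0.23 ± 0.17 (SE, n = 3 per group; adjusted p = 0.619, edgeR). Etfb, the beta subunit of the electron transfer flavoprotein, stood at 3.81, 4.83 and 4.19 CPM in Chow and at 4.94, 5.81 and 6.46 CPM in HFD. All 3 HFD libraries lay above all 3 Chow libraries, by a log2 fold change of 0.43 ± 0.25 (SE, n = 3 per group; adjusted p = 0.549, edgeR). The partner subunit Etfa, far more abundant, had a log2 fold change of 0.10, and the ubiquinone oxidoreductase Etfdh that accepts their electrons one of -0.17. Abundant Hadh had a log2 fold change of -0.04, whose sign turned without HFD 4 (0.15) or without Chow 19 (0.022).

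Among the peroxisomal members the diet values were led by Acaa1b, one of a pair of thiolases that close the peroxisomal spiral. Acaa1b stood at 13.9, 11.5 and 13.5 CPM in Chow and at 14.1, 16.5 and 24.3 CPM in HFD. The HFD libraries lay above the Chow libraries, the lowest of them by a narrow margin, with a log2 fold change of 0.50 ± 0.22 (SE, n = 3 per group; adjusted p = 0.471, edgeR). Acot8, a thioesterase that releases free acids from peroxisomal acyl-CoA, stood at 16.7, 17.9 and 12.3 CPM in Chow and at 15.7, 22.9 and 19.0 CPM in HFD. The groups overlapped, with a log2 fold change of 0.31 ± 0.21 (SE, n = 3 per group; adjusted p = 0.599, edgeR). Acaa1a and Hsd17b4 had log2 fold changes of -0.18 each, and the remaining peroxisomal members lay between -0.14 (Pex11a) and 0.13 (Decr2). Etfb and Acaa1b were the members whose HFD and Chow libraries did not overlap, 2 of 30 higher on the diet, beside 8.34% of all genes. No member was lower without overlap, beside 7.50% of all genes.

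PCN came with higher mean levels across most of the machinery than vehicle did, without a single gene of it passing the test. In HFD PCN against HFD Vehicle, 29 of 31 members had a positive log2 fold change, against 49% of all genes, and the exceptions were Acadvl (-0.08) and Mlycd (-0.39). The median log2 fold change was 0.33 over the mitochondrial, 0.59 over the peroxisomal and 0.44 over the shared members, beside -0.01 over all genes tested. The adjusted p of the members ran from 0.231 (Acaa1b) to 0.962 (Etfb), so that 0 of 31 members were called, where 10 of 16110 genes, or 0.0621%, were. In the authors' deposited table of this comparison, 0 members likewise had an adjusted p under 0.05, of 216 genes that did.

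At an unadjusted p under 0.05 stood 4 of 31 members (Acaa1b, Decr1, Abcd3 and Hsd17b4), all higher with PCN, beside 6.46% of all genes that were higher at that level. In 11 of 31 members, all 3 PCN libraries lay above all 3 vehicle libraries, beside 11.2% of all genes. They were 4 of 17 mitochondrial members (Decr1, Echs1, Hadh and Acaa2), 5 of 9 peroxisomal members (Acaa1b, Abcd3, Hsd17b4, Ehhadh and Decr2) and 2 of 5 shared members (Crat and Acad11). No member was lower without overlap, beside 8.83% of all genes. The call rested on the libraries used. Without HFD Vehicle 55, the number of genes called went from 10 to 3697, where the main fit tested 16110. Members called went from 0 to 6 (Abcd3, Acaa1b, Acadl, Acsl1, Decr1 and Eci2), which was not particular to them with so many genes called. That run kept HFD Vehicle 23 and 50, the libraries with the highest summed level of 2 heat shock genes (4677 and 3996 CPM). Without the filter on low counts, 843 genes were called, with 28731 deposited. Acaa1b and Decr1 were among them, with adjusted p of 0.0155 and 0.0438 by edgeR.

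**Figure D2:**
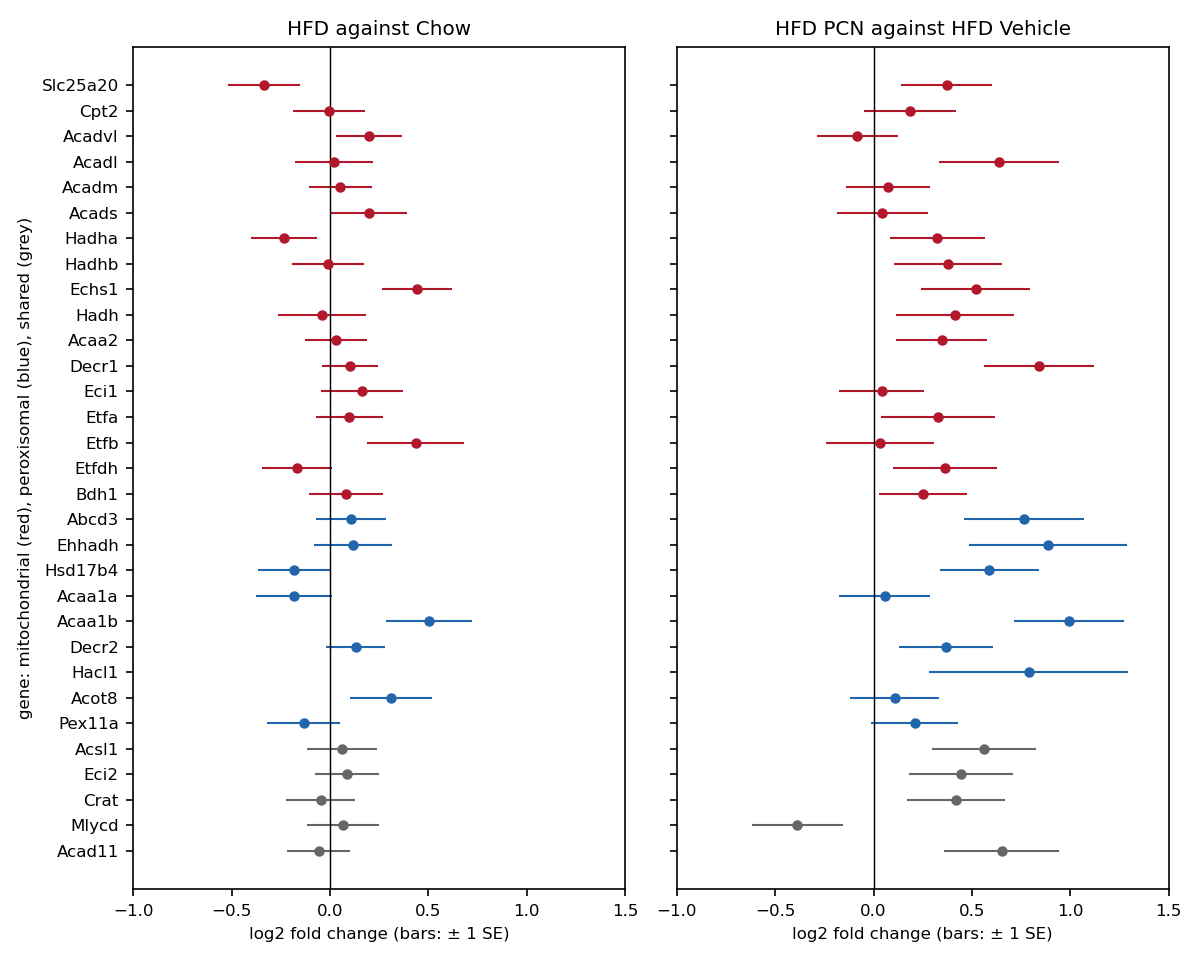
Dots give the log2 fold change of each gene and bars 1 standard error to each side, for HFD against Chow (left) and HFD PCN against HFD Vehicle (right), from edgeR fits of 3 libraries per group. Diet values scatter around 0, and PCN values lie to the right of 0 for 29 of 31 genes, up to 0.99 for Acaa1b, with standard errors of 0.20 to 0.51.

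The import and early steps of the peroxisomal route were among the higher ones with PCN. Abcd3, the ABC transporter that brings acyl-CoA into the peroxisome and is a major protein of its membrane, stood at 169, 263 and 352 CPM with vehicle and at 517, 463 and 360 CPM with PCN. The lowest PCN library was just above the highest vehicle library, and the Chow and HFD libraries lay between 228 and 320 CPM. PCN libraries exceeded vehicle libraries by 0.76 ± 0.31 on the log2 scale (SE, n = 3 per group; adjusted p = 0.256, edgeR). Ehhadh, the L-bifunctional enzyme that hydrates and dehydrogenates enoyl-CoA, stood at 39.5, 136 and 131 CPM with vehicle and at 211, 189 and 169 CPM with PCN. HFD Vehicle 23 held far less of it than any other library, and the Chow and HFD libraries lay between 114 and 194 CPM. The log2 fold change was 0.89 ± 0.40 (SE, n = 3 per group; adjusted p = 0.283, edgeR).

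Hsd17b4, the D-bifunctional enzyme that also handles bile acid intermediates and branched chains, stood at 159, 184 and 199 CPM with vehicle and at 348, 266 and 205 CPM with PCN. Vehicle libraries were close together here, HFD Vehicle 23 included, whereas the PCN libraries were spread. Their log2 fold change was 0.59 ± 0.25 (SE, n = 3 per group; adjusted p = 0.270, edgeR). Decr2, which reduces dienoyl-CoA from polyunsaturated acids, had a log2 fold change of 0.37 ± 0.24, with HFD Vehicle 23 at 23.2 CPM and the other 11 libraries between 34.3 and 45.3 CPM. Acot8 and Pex11a gave smaller values, at 0.11 ± 0.23 for Acot8 and 0.21 ± 0.22 for Pex11a, a membrane protein of peroxisome proliferation. Hacl1 had a log2 fold change of 0.79 ± 0.51 on levels under 1 CPM.

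The peroxisomal thiolases Acaa1a and Acaa1b carry the same step and gave different values. Both lie on chromosome 9 of GRCm38 (Acaa1a at 119339676-119350299, plus strand, and Acaa1b at 119148023-119157093, minus strand). Acaa1b stood at 12.2, 21.6 and 11.5 CPM with vehicle and at 35.4, 29.0 and 27.1 CPM with PCN. Each PCN library was higher than any of the other 9 libraries, of which HFD 38 was the highest at 24.3 CPM. The log2 fold change was 0.99 ± 0.28 (SE, n = 3 per group; adjusted p = 0.231, edgeR), and in the authors' deposited table it was 0.90 with an adjusted p of 0.106. Acaa1a stood at 78.3, 124 and 80.5 CPM with vehicle and at 104, 89.5 and 103 CPM with PCN. The PCN libraries lay inside the vehicle range, and the log2 fold change was 0.06 ± 0.23 (SE, n = 3 per group; adjusted p = 0.910, edgeR). The difference between the pair was not tested. Of the 1640 stretches of 50 bases in the principal transcript of Acaa1b, 583, or 35.5%, occur unchanged in that of Acaa1a, so reads of the pair may not be fully separated.

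The sequences just upstream of the start of each gene of the pair are shown next, and they were not aligned with each other. They are the 130 bases before the RefSeq start in GRCm38.p6, read along the gene, at chr9:119341164-119341293 (plus strand) for Acaa1a and chr9:119157094-119157223 (minus strand) for Acaa1b. The Acaa1b stretch lies outside the annotated bounds of Acaa1b, whereas the Acaa1a stretch lies within the longer Acaa1a gene of the GENCODE annotation. Whether exons of other genes reach into the stretches was not tested. Capitals mark the GC box GGGCGG and the nuclear receptor motif AGTTCA, on either strand.
Acaa1a: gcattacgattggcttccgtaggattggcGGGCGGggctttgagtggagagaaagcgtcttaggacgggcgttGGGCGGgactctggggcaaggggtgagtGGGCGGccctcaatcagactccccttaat
Acaa1b: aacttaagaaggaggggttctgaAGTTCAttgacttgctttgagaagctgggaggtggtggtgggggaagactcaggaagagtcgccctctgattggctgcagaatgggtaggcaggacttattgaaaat
The Acaa1a stretch holds 3 GC boxes, no AGTTCA and 9 CpG at a GC content of 60.8%. The Acaa1b stretch holds no GC box, 1 AGTTCA and 1 CpG at 49.2%. Over the 250 bases before the start, the same counts were 3 GC boxes, 1 AGTTCA and 10 CpG for Acaa1a, and 0, 2 and 2 for Acaa1b. A RefSeq window was found for 27 of the 31 members. GGGCGG occurred in 17 of these 27, against 32.7% of 32851 windows of all genes, and AGTTCA in 3 (Acaa1a, Acaa1b and Bdh1), against 11.8%. A member with several windows counted if any of them matched, whereas the shares over all genes are of single windows. A direct repeat of AGGTCA with 1 base between its copies, on either strand, the kind of element that PPAR and its partner RXR bind, occurred with up to 2 mismatches in 2 of 27 (Echs1 and Etfa), against 3.24% of all windows. These are matches of letters in short windows and show nothing about binding.

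**Figure D3:**
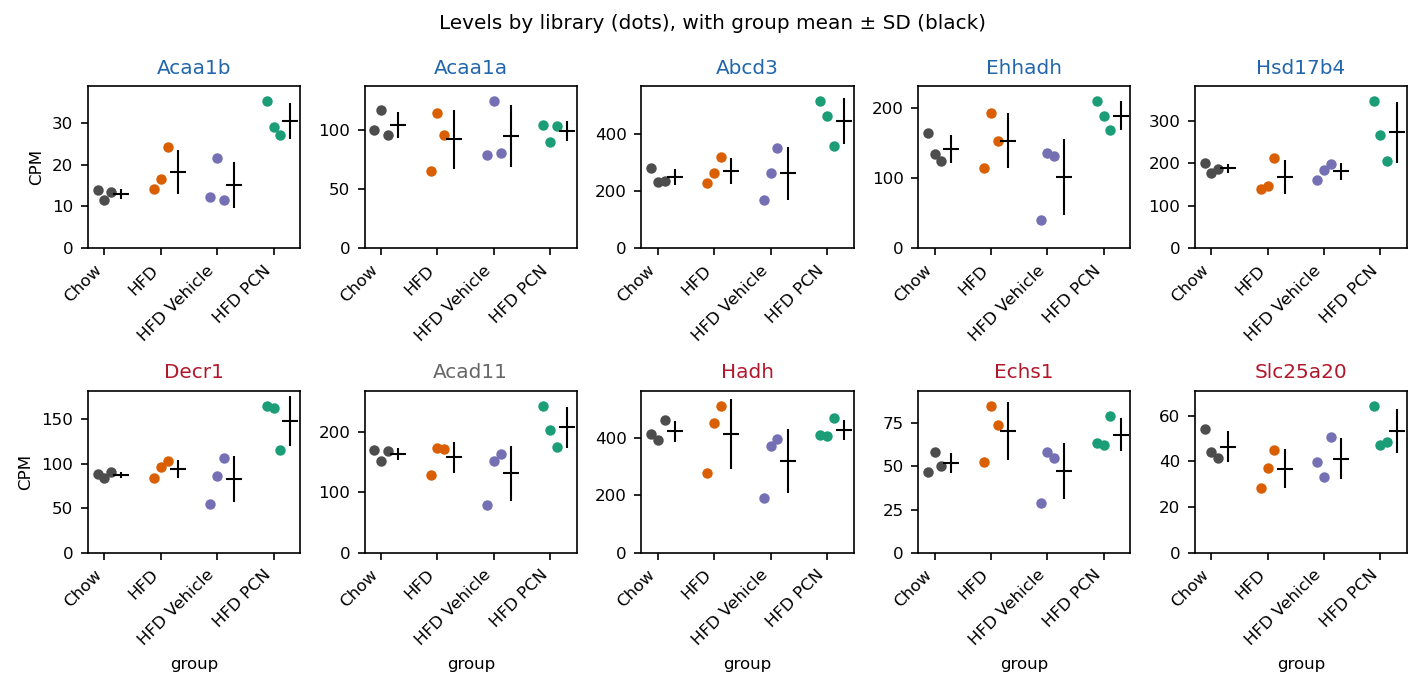
Each panel plots CPM of 1 gene in the 3 libraries of each group (dots) with the group mean and SD (black), on an axis from 0, with peroxisomal names in blue, mitochondrial in red and the shared Acad11 in grey. The PCN libraries of Acaa1b, at 27.1 to 35.4 CPM, sit above all others, whereas those of Acaa1a, at 89.5 to 104 CPM, sit among them.

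In the mitochondrial route, the PCN values were highest for Decr1, the dienoyl-CoA reductase needed for polyunsaturated acids. Decr1 stood at 54.9, 85.8 and 106 CPM with vehicle and at 165, 163 and 115 CPM with PCN. All PCN libraries were above the other 9 libraries, HFD PCN 27 by a small margin. The log2 fold change was 0.84 ± 0.28 (SE, n = 3 per group; adjusted p = 0.240, edgeR), against 0.10 ± 0.14 for HFD against Chow. Among the acyl-CoA dehydrogenases that start each turn, Acadl for long chains had a log2 fold change of 0.64 ± 0.31. Those for very long (Acadvl), medium (Acadm) and short chains (Acads) had -0.08 ± 0.20, 0.07 ± 0.21 and 0.04 ± 0.23. Acadl was at 195 CPM in HFD PCN 5 and at 61.9 CPM in HFD Vehicle 23, and its other 10 libraries lay between 74.3 and 132 CPM.

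The middle steps gave values between these. The subunits of the trifunctional protein, Hadha and Hadhb, had log2 fold changes of 0.32 ± 0.24 and 0.38 ± 0.27 with PCN. Hadh stood at 190, 373 and 397 CPM with vehicle and at 411, 407 and 470 CPM with PCN, and Echs1 at 28.6, 58.3 and 55.0 CPM and at 63.3, 62.5 and 79.2 CPM. In both genes the PCN libraries were above the vehicle libraries, but they lay within the range of the HFD libraries. The log2 fold changes were 0.41 ± 0.30 for Hadh and 0.52 ± 0.28 for Echs1 (SE, n = 3 per group; adjusted p = 0.449 and 0.331, edgeR). The thiolase Acaa2 had a log2 fold change of 0.35 ± 0.23, and the isomerase Eci1, which prepares unsaturated acids for the hydratase, 0.04 ± 0.21.

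At the ends of the mitochondrial route the values were mixed. The carnitine carrier Slc25a20 stood at 39.7, 33.1 and 50.7 CPM with vehicle and at 64.5, 47.2 and 48.5 CPM with PCN, which overlapped, with a log2 fold change of 0.37 ± 0.23. Cpt2, which turns acylcarnitine back into acyl-CoA inside the mitochondrion, had 0.19 ± 0.23. Among the electron acceptors, Etfa had 0.33 ± 0.29, Etfdh 0.36 ± 0.26 and Etfb 0.03 ± 0.27. Bdh1, which interconverts the ketone bodies, had 0.25 ± 0.22.

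Among the shared members, Acad11 stood at 79.6, 152 and 163 CPM with vehicle and at 244, 204 and 176 CPM with PCN. The PCN libraries were above all other libraries, HFD PCN 27 by a few CPM over the highest HFD library at 173 CPM. Its log2 fold change was 0.65 ± 0.29 (SE, n = 3 per group; adjusted p = 0.282, edgeR). Acsl1, a long-chain acyl-CoA synthetase that activates fatty acids, had 0.56 ± 0.26. Eci2, an enoyl-CoA isomerase, had 0.44 ± 0.27, and the carnitine acetyltransferase Crat had 0.42 ± 0.25. Mlycd breaks down malonyl-CoA, the inhibitor of carnitine-dependent entry, and had the lowest value of all members at -0.39 ± 0.23 (SE, n = 3 per group; adjusted p = 0.371, edgeR). It stood at 19.8, 22.7 and 17.3 CPM with vehicle and at 16.2, 12 and 18.1 CPM with PCN, with 1 PCN library inside the vehicle range.

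Mitochondrial and peroxisomal members were then compared within each library, as the mean log2 CPM of the 17 mitochondrial members minus that of the 9 peroxisomal members. The difference was 0.94 ± 0.12 in Chow, 1.0 ± 0.10 in HFD, 1.06 ± 0.042 in HFD Vehicle and 0.83 ± 0.074 in HFD PCN (SD, n = 3 each). Vehicle libraries stood at 1.06, 1.02 and 1.1 and PCN libraries at 0.78, 0.79 and 0.92, without overlap, so that PCN libraries were shifted to the peroxisomal side by 0.23 on the log2 scale. One Chow library, at 0.81, lay in the PCN range. Leaving out any 1 library gave differences between PCN and vehicle of -0.27 to -0.20, and leaving out HFD Vehicle 23 together with HFD Vehicle 50 gave -0.27. The shift depended on how members were summarised: with the median over members in place of the mean, it was -0.0082. It was not shared by all peroxisomal genes: Acaa1a, Acot8 and Pex11a had log2 fold changes of 0.06 to 0.21, and without Bdh1, Pex11a and Acot8 the difference was -0.34. HFD minus Chow was 0.06, smaller than the SD of either group, and its sign turned without Chow 8 (-0.0034), with the median (-0.025) and without Hacl1 and Etfb (-0.044).

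**Figure D4:**
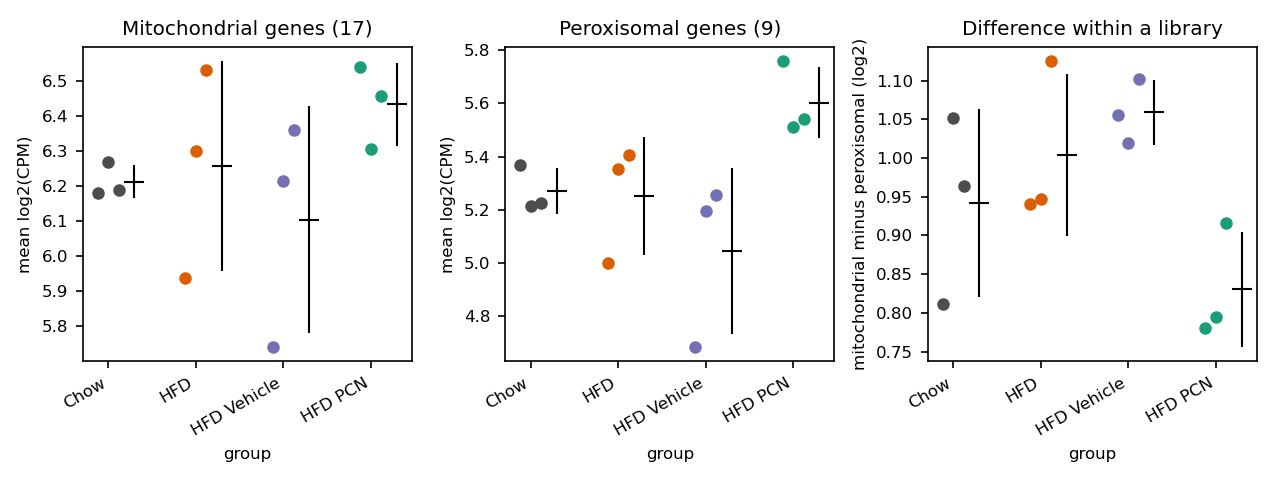
Mean log2 CPM of the 17 mitochondrial genes (left), of the 9 peroxisomal genes (middle) and their difference within a library (right) are plotted for each library (dots), with group mean and SD (black), on axes that do not start at 0. PCN libraries have the highest peroxisomal means, at 5.51 to 5.76, and differences of 0.78 to 0.92 against 1.02 to 1.1 with vehicle.

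The enterocyte markers were also at a higher mean level with PCN. They were Vil1, Fabp1, Fabp2, Apoa1, Apoa4, Alpi, Sis, Lct, Anpep, Mttp, Slc5a1 and Rbp2, several of which handle dietary fat. The median log2 fold change of the 12 enterocyte markers with PCN was 0.45, with 12 of 12 positive and 0 called, beside 0.37 over all 31 members. Their summed level was 13937 to 37865 CPM with vehicle and 36581 to 41039 CPM with PCN, against 29054 to 35925 CPM in Chow and 20978 to 42240 CPM in HFD. When the mean log2 CPM of the enterocyte markers was subtracted in each library, the peroxisomal members stood at -5.69 ± 0.42 with vehicle and -5.78 ± 0.018 with PCN (SD, n = 3). The mitochondrial members stood at -4.63 ± 0.40 with vehicle and -4.95 ± 0.073 with PCN. Subtracting the markers also takes out any change that markers and members share. On this scale PCN minus vehicle was -0.32 for the mitochondrial and -0.09 for the peroxisomal members, both within the SD of the vehicle group. HFD Vehicle 23 stood highest on this scale, at -5.24 for the peroxisomal members, against -5.75 and -6.07 in the other vehicle libraries and -5.80 to -5.76 with PCN. Without it, PCN minus vehicle was -0.10 for the mitochondrial and 0.13 for the peroxisomal members, so the sign of the peroxisomal difference rested on this 1 library. Without HFD Vehicle 23, the median log2 fold change of the mitochondrial members was 0.13 and that of the peroxisomal members 0.49, and without HFD Vehicle 23 and 50 they were 0.03 and 0.27. Without HFD PCN 5 they were 0.25 and 0.38. By gene, leaving out HFD Vehicle 23 gave log2 fold changes with PCN of 0.84 for Acaa1b, 0.61 for Decr1, 0.52 for Abcd3, 0.50 for Hsd17b4, 0.49 for Ehhadh and 0.38 for Acad11. Leaving out HFD Vehicle 50 as well gave 1.38, 0.45, 0.31, 0.43, 0.50 and 0.32, with 1 vehicle library left.

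Several lists of other cell markers moved with the groups as well, none of their genes passing the test in PCN against vehicle. Smooth muscle markers had a median log2 fold change of -0.68 with 7 of 7 negative, fibroblast markers -0.97 with 6 of 6 negative, Paneth cell markers -2.24 with 5 of 5 negative, and T and NK cell markers 1.24 with 7 of 7 positive. Markers of acinar cells had -2.35 and of enteroendocrine cells -0.37, each with 5 of 5 tested negative. Signs were mixed for goblet (2 positive, 3 negative), plasma cell (3 and 1), stem and cycling (3 and 2) and myeloid markers (1 and 4). Fibroblast markers summed to 230 to 399 CPM with vehicle and 141 to 186 CPM with PCN, and Paneth markers to 561 to 2594 CPM and 270 to 586 CPM. The 2 heat shock genes found in both tables summed to 4677 CPM (HFD Vehicle 23) and 3996 CPM (HFD Vehicle 50) in a pair of vehicle libraries, against 595 to 1959 CPM in the other libraries. In HFD against Chow, T and NK cell markers had a median of -1.39 with 7 of 7 negative. Acinar markers had -3.17 there, with 5 of 5 tested negative, and fibroblast markers 0.42, with 4 positive and 2 negative. Enterocyte markers had -0.01 on the diet, with 6 positive and 6 negative, and no gene of these lists was called. The part of cell makeup, stress and library quality in the members' values was not tested.

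**Figure D5:**
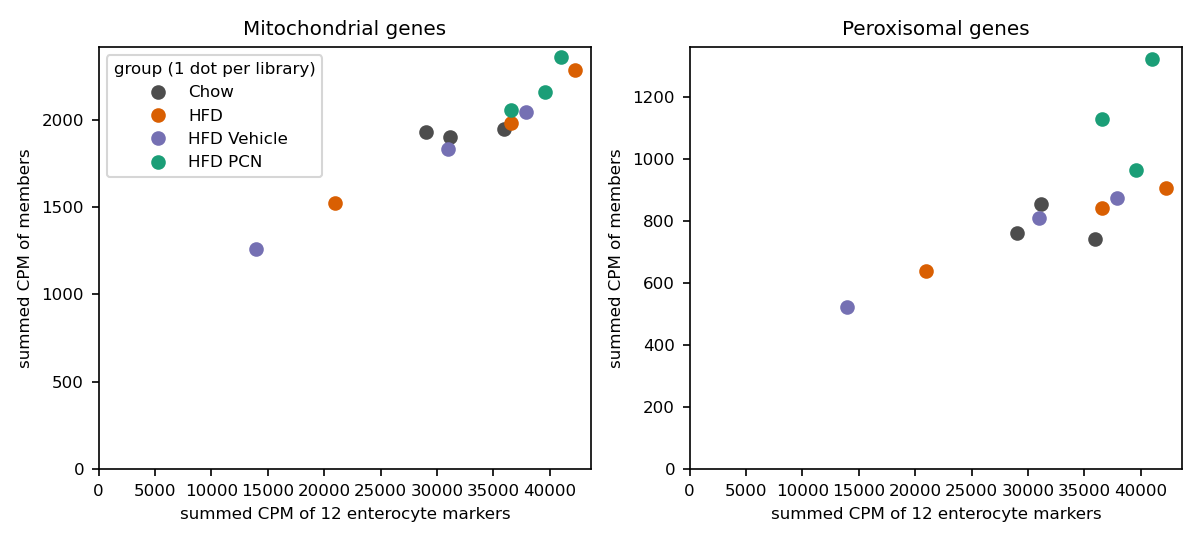
Each dot is 1 library, placed by the summed CPM of 12 enterocyte markers (horizontal axis) and of the mitochondrial (left) or peroxisomal (right) members (vertical axis), with axes from 0. HFD Vehicle 23 and HFD 4 are lowest on both axes, and the PCN libraries, at 964 to 1322 CPM for peroxisomal members, are the highest in the right panel.

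HFD Vehicle was set against HFD, with raw counts joined from both tables. All vehicle libraries come from one deposited table and all HFD libraries from the other. An effect of the injections therefore cannot be told apart from a difference between the tables. The members leaned to lower values, with 25 of 30 negative, against 50.7% of all genes that were positive, and with medians of -0.13 (mitochondrial), -0.16 (peroxisomal) and -0.16 (shared), beside 0.01 over all genes. None was called, and no gene of the 16255 tested was (edgeR; 953 genes at an unadjusted p under 0.05, or 5.86% of all genes, none of them a member, and 32 genes called by DESeq2). The lowest values were -0.59 ± 0.42 for Ehhadh and -0.58 ± 0.30 for Echs1. Mlycd was the only member whose groups did not overlap in this comparison, at 19.8, 22.7 and 17.3 CPM with vehicle against 13.7, 17.2 and 14.8 CPM in HFD, beside 4.39% of all genes that were higher without overlap. The mitochondrial median was 0.06 without HFD Vehicle 23 and 0.02 without HFD 38, and -0.24 without either HFD 4 or HFD Vehicle 55. The peroxisomal medians in the same order were -0.11, -0.02, -0.28 and -0.28.

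HFD PCN was also set against HFD, which does not use the vehicle libraries but shares the PCN libraries with the comparison above. PCN, the injections and the deposited table differ together here and cannot be told apart. The median log2 fold change was 0.12 over the mitochondrial, 0.31 over the peroxisomal and 0.40 over the shared members, beside 0.00 over all genes, and 25 of 31 members were positive, against 50.1% of all genes. Without HFD 4 the medians were -0.00028 (mitochondrial) and 0.16 (peroxisomal), and without HFD 38 they were 0.26 and 0.30. Without HFD PCN 5 they were 0.07 and 0.21, and without HFD PCN 11 they were 0.23 and 0.31. None was called by edgeR, of 52 of 15982 genes, or 0.325%. The log2 fold changes were 0.73 ± 0.22 for Abcd3, 0.72 ± 0.21 for Acaa1b, 0.71 ± 0.24 for Hsd17b4 and 0.65 ± 0.19 for Decr1, with adjusted p of 0.155, 0.149, 0.182 and 0.146 (edgeR). Ehhadh, at 0.31 ± 0.20, had a smaller value here than against vehicle, where it was 0.49 without HFD Vehicle 23. At an unadjusted p under 0.05 stood 7 members, all higher with PCN, beside 8.38% of all genes. In 7 of 31 (Slc25a20, Acaa2, Decr1, Abcd3, Acaa1b, Eci2 and Acad11) the PCN libraries lay above all HFD libraries, beside 10.7% of all genes. Abcd3 was called with DESeq2 (adjusted p = 0.0241), and Acaa1b without the filter on low counts (adjusted p = 0.0230, edgeR) and without HFD 38 (adjusted p = 0.0318, edgeR). The DESeq2 run and the run without the filter also called many more genes than the 52 of the main fit. These calls alone therefore do not set the members apart from other genes.

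Genes of the wider pathway were described as lists, and no gene of the lists below was called in HFD against Chow or in PCN against vehicle. Of 18 other mitochondrial fat oxidation and ketone genes tested, 12 were positive and 6 negative with PCN against vehicle, with a median log2 fold change of 0.19. Cpt1a, the carnitine palmitoyltransferase that controls entry, had 0.65 ± 0.29 with PCN (adjusted p = 0.282, edgeR) and 0.07 ± 0.14 on the diet. Of 20 other peroxisomal metabolism genes tested with PCN, 15 were positive and 5 negative, with a median of 0.25. On the diet the medians of these lists were 0.09 and 0.0028.

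With PCN, of 15 peroxisome biogenesis genes, 9 were positive and 6 negative, with a median of 0.05, and on the diet the median was 0.21. Of 12 regulators, 8 were positive and 4 negative, with a median of 0.10 with PCN and 0.25 on the diet. Among them Ppara, which encodes PPAR alpha, had -0.06 ± 0.22 with PCN and 0.33 ± 0.21 on the diet (adjusted p = 0.905 and 0.573, edgeR). Of 23 nuclear genes of the respiratory chain, which takes up the electrons of the mitochondrial route, 16 were positive and 7 negative with PCN, with a median of 0.12. On the diet 20 of 23 were positive, with a median of 0.26.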

How the data were processed

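Raw counts per gene were deposited in 2 tables, 1 of Chow and HFD (28066 genes) and 1 of HFD Vehicle and HFD PCN (28731 genes). The submitters' processing notes name HISAT2, HTSeq, DESeq2 and the build GRCm38 (mm10), with no versions. For the annotation release and the strand setting nothing is given in the sources used here. The authors' deposited columns of log2 fold change and adjusted p are written with decimal commas and stand in the text only where their table is named. The deposited counts are whole numbers with differing totals, used as they stand.

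The test was edgeR 4.0.16 (R 4.3.3), run on the 6 libraries of a comparison (filterByExpr, TMM, robust quasi-likelihood F-test, Benjamini-Hochberg over all genes tested, called under 0.05). Standard errors are the log2 fold change over the square root of F, an approximation. HFD Vehicle against HFD and HFD PCN against HFD joined counts of genes in both tables, and all comparisons share libraries with others. CPM used TMM over all 12 libraries, on the 26121 shared genes, and compartment means added a prior count of 1. Groups came from the sample titles. Replicates differed by more than sampling noise (chi-square per degree of freedom 27.4 to 188), so each counted once. The fits were tested on simulated data.

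Promoters are RefSeq (GRCm38.p6) windows, and transcript lengths and overlaps come from GENCODE (GRCm38). Members were named as the lowest p in each main comparison and the highest level per length in each compartment; further members are given by role, and of the wider pathway lists Cpt1a and Ppara. Some genes of the wider pathway lists are not reported here by name. Members, lists and rules were chosen with earlier results of these data known. Alternatives were DESeq2 1.42.0, limma-voom (limma 3.58.1), other scalings and filters, and leaving out libraries; those without Hacl1 and Etfb and without HFD Vehicle 23 and 50 for the compartment result, and leaving out libraries on the enterocyte scale, were chosen after seeing the data. Total counts, which limit the precision of counting but not the spread between samples, were lowest for HFD Vehicle 55 and HFD 4.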

Additional observations from a re-analysis of the deposited data

How the results depend on the processing

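Genes called on the diet (10) became 134 with DESeq2, 351 without the low-count filter, 6 with limma-voom, 2 with all 12 libraries in 1 fit and 4 to 63 on leaving out each library in turn. For PCN against vehicle (10) they became 339 with DESeq2, 843 without the filter, 4 without ribosomal RNA-like genes, 34 with all 12 libraries, 2 without HFD Vehicle 23 and 50, and 0 to 3697 on leaving out each library, the highest without HFD Vehicle 55. For vehicle against HFD (0) they became 32 with DESeq2, 1 without the filter and 0 to 260; for PCN against HFD (52), 403, 746 and 1 to 452. Members called stayed at 0 on the diet and for vehicle against HFD in each alternative run. For PCN against vehicle they became 2 without the filter and 0 to 6 on leaving out each library, and for PCN against HFD 1 with DESeq2, 1 without the filter and 0 to 1. The cause was not tested.

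The compartment difference, PCN minus vehicle (-0.23), was -0.34 without Bdh1, Pex11a and Acot8 and -0.0082 with the median over members; PCN minus HFD (-0.17) was -0.27 and 0.015. On the diet, leaving out each library gave -0.21 to 0.15 for Hadh (sign turned without HFD 4, 0.15, or Chow 19, 0.022), -0.016 to 0.19 for Abcd3 (turned without HFD 38) and -0.11 to 0.037 for Acad11 (turned without HFD 4). Of the log2 fold changes of named members under other settings, 206 kept their direction and side of the threshold, 5 passed it only there and 4 changed sign. No paired analysis was possible because the groups share no replicate numbers. Leaving out a library leaves 2 in its group.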
